A study of Mus musculus with 6 samples.

Results

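The genes described here act in homologous recombination, the Fanconi anaemia pathway, mismatch repair and the DNA damage checkpoint. They were taken from a list of 32 symbols grouped by function, with no threshold on a measured value. Of these, 31 had at least 1 probe that the array's printed RefSeq accession tied to the symbol, and all 31 passed the filter on dim probes, against 28555 features that passed over the whole array. Rad51c had no such probe and has no value here.

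RNA came from C2C12, an established mouse myoblast line that leaves the cell cycle and fuses into myotubes when serum is lowered. Cells grown in 10% fetal bovine serum were transfected with si-NC, the control small interfering RNA, on 3 arrays, or with si-SYISL, which targets the long non-coding RNA SYISL, on 3 arrays, and both groups were then kept for 2 days in medium with 2% horse serum. The comparison asks how expression differs in cells that have received si-SYISL by day 2 of differentiation, and here it is read for the repair and checkpoint genes. The level of SYISL itself was not analysed here, since no probe could be named for it. Within either group, the arrays of replicates 1 and 3 were closer to each other than repeated spots of a single probe are on an array (chi-square per probe 0.237 and 0.153, against 30.1 to 203 in the other 13 pairs of arrays). Their differences being under the sampling noise, replicates 1 and 3 were averaged into 1 sample, and each group then had 2. Whether the replicates were separate cultures is not stated in the labels. The p-values therefore measure only the spread between these samples, which may be technical, and precision is limited by the number of arrays. Between 78.2% and 90.6% of spots were well above background on an array, 0 spots were saturated, and all 12 muscle markers, among them Myod1, Myog and Des, were well above background on every array. Their summed signal was 156100 to 168700 intensity units in si-NC against 208600 to 211200 in si-SYISL, but 5 of the 12 were below the median of all features. The log2 difference from si-NC, less that median, was -0.78 for Myod1. Chrna1 stood at -0.28, Des at -0.071 and Myog at -0.017, while Tnnt3 stood at 1.24 and Tnnt1 at 0.66.

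Homologous recombination repairs a broken chromosome by copying the sister chromatid, so it works in S and G2 phase. The ends are first trimmed to single strands, and BRCA1, PALB2 and BRCA2 then prepare these strands for the search for the matching sequence. The Fanconi proteins recognise cross-links between the DNA strands and hand the lesion to recombination. The kinases ATM and ATR sense breaks and stalled forks and activate CHK2 and CHK1, which hold the cell cycle. Many of these genes are transcribed mostly in dividing cells under the control of E2F factors, and myoblasts stop dividing as they differentiate.

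Relative to the median of all features, the repair and checkpoint genes tended to have lower signals in the si-SYISL samples, by small amounts. No single gene passed the test, and much of the difference lay in replicate 2. Signals below are scaled intensities, that is the deposited signal divided by its array's 75th percentile and multiplied by the mean of these percentiles (2514). Log2 differences, given ± SE (n = 2 samples a group), are those of si-SYISL from si-NC, positive where si-SYISL was higher, less the median over all features, which was 0.16 before subtraction. The median of the 31 genes was -0.28, with 25 of them below the median of all features (50% of features by definition), and the values ran from -0.98 for Clspn to 0.26 for Fancc. At an adjusted p of 0.05 in limma 0 of the 31 passed, as did 0 of all 28555 features (0%), and the smallest adjusted p was 0.141 among the 31 and 0.0842 over all features. At an unadjusted p under 0.05, Clspn, Exo1, Rad54l and Fancm (4 of 31) were lower and 0 were higher, against 5.85% and 16.8% of all features. Both si-SYISL samples lay below both si-NC samples for 12 of the 31, against 15.8% of all features, and above them for 3, against 46.3% of all features. With each sample centred on its own median these counts were 13 and 2, against 21.4% and 33.9% of all features, and 7 were lower and 0 higher at an unadjusted p under 0.05, against 8.21% and 10.9%. The shares of all features include dim features that passed the filter through si-SYISL alone. Spots well above background were fewer in si-NC (78.2% to 84.6%) than in si-SYISL (87.9% to 90.6%). With probes well above background on all 6 arrays, 11 of 30 genes were lower without overlap and 3 higher, and 17.7% of all features were lower. When the 6 arrays were taken as 6 samples, near-identical ones included, 9 of the 31 passed at an adjusted p of 0.05, against 34.2% of all features. With the features split by mean signal into 4 equal bins, the dimmest held 2 of the 31 genes, the next 9, the next 16 and the brightest 4. The median relative difference of all features in these bins, from dim to bright, was 0.20, 0.011, -0.094 and -0.082, and that of the repair and checkpoint genes was -0.20, -0.48, -0.28 and -0.026.

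**Figure D1:**
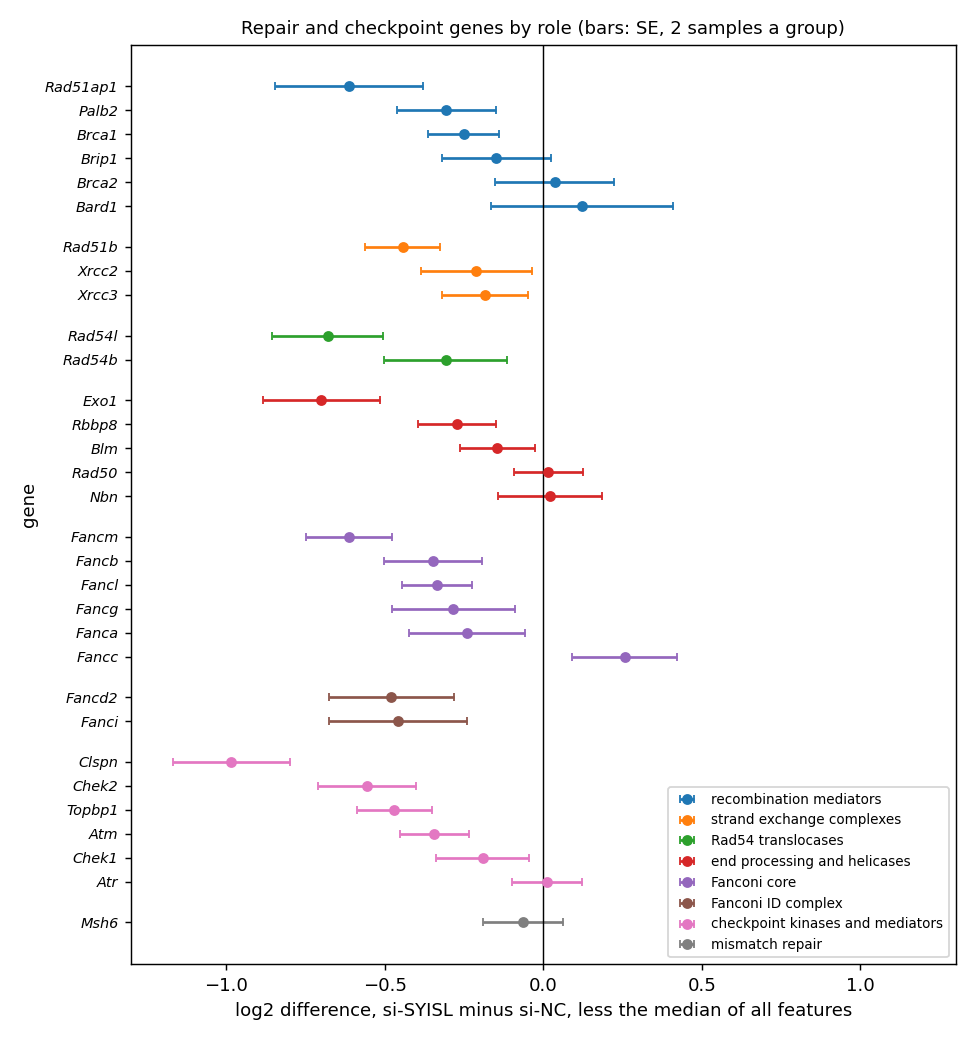
Log2 difference (x axis, si-SYISL minus si-NC, less the median of all features) of each of the 31 measured repair and checkpoint genes (y axis), grouped and coloured by role. Points are estimates and bars are SE with 2 samples in each group. Clspn lies farthest to the left at -0.98, and Fancc farthest to the right at 0.26.

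**Figure D2:**
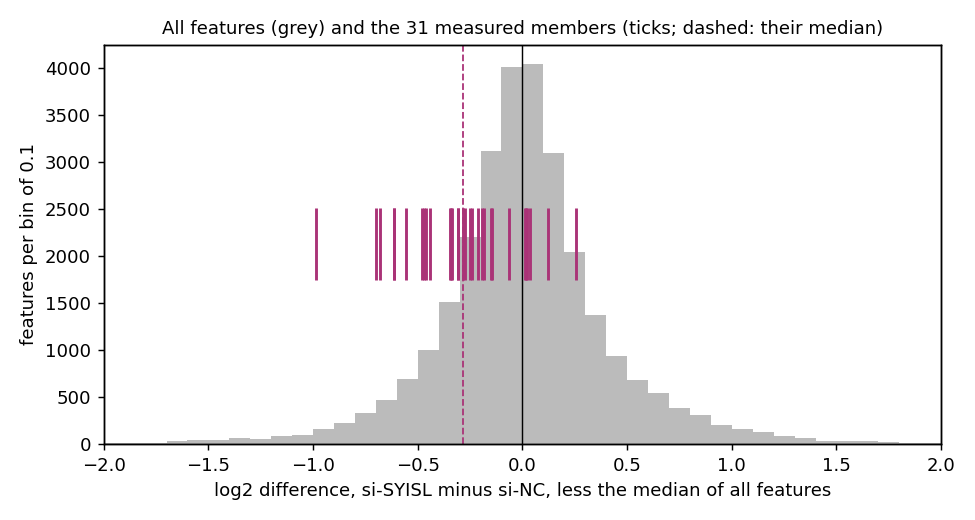
Histogram of the log2 difference (x axis, less the median of all features) of all 28555 features in bins of 0.1 (y axis, features per bin), with ticks for the 31 measured repair and checkpoint genes and a dashed line at their median. The line stands at -0.28, and 25 of the ticks lie left of 0; 89 features lie beyond the axis limits of -2 and 2.

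The checkpoint genes had a median of -0.41 over 6 genes. Without overlap of the samples, 4 were lower in si-SYISL and 1 higher, against 15.8% and 46.3% of all features. With each sample centred on its median 4 were again lower, against 21.4% of all features. Clspn encodes claspin, the adaptor through which ATR activates CHK1. In the order of replicates 1, 2 and 3, its signal was 309.8, 371 and 318 in si-NC, against 219.9, 169 and 221 in si-SYISL. The groups did not overlap, and replicate 2 was the highest si-NC array and the lowest si-SYISL array. The difference was -0.98 ± 0.19 (unadjusted p = 0.00932, adjusted p = 0.141), the lowest of the 31 genes in value and in p. Topbp1 encodes the protein that switches on ATR. It gave 3511, 3699 and 3486 in si-NC and 3054, 2780.5 and 3024 in si-SYISL, with no overlap between groups and a difference of -0.47 ± 0.12 (adjusted p = 0.227). Chek2, which encodes the CHK2 kinase activated by ATM, gave 359, 348 and 352 in si-NC and 296, 239 and 305 in si-SYISL. Again the arrays of the 2 groups were apart, si-SYISL replicate 2 being the lowest, and the difference was -0.55 ± 0.15 (adjusted p = 0.233).

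The 3 remaining checkpoint genes, all kinases, had smaller differences. Chek1 encodes CHK1, the kinase downstream of claspin, and its signals overlapped, with 367, 413 and 362 in si-NC and 355, 412 and 347 in si-SYISL. Its difference was -0.19 ± 0.15 (adjusted p = 0.909), so the kinase and its adaptor gave estimates of -0.19 and -0.98. Atm, which encodes the kinase that responds to breaks, had 1051, 1051 and 1037 in si-NC and 897, 942 and 917 in si-SYISL. These groups did not overlap, and the difference was -0.34 ± 0.11 (adjusted p = 0.345). Atr, the kinase gene for stalled forks, had 4693, 4483 and 4723 in si-NC and 5230.3, 5070.2 and 5370.4 in si-SYISL. All 3 of its si-SYISL arrays were above the si-NC arrays, but relative to the median of all features the difference was 0.012 ± 0.11 (adjusted p = 0.366).

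**Figure D3:**
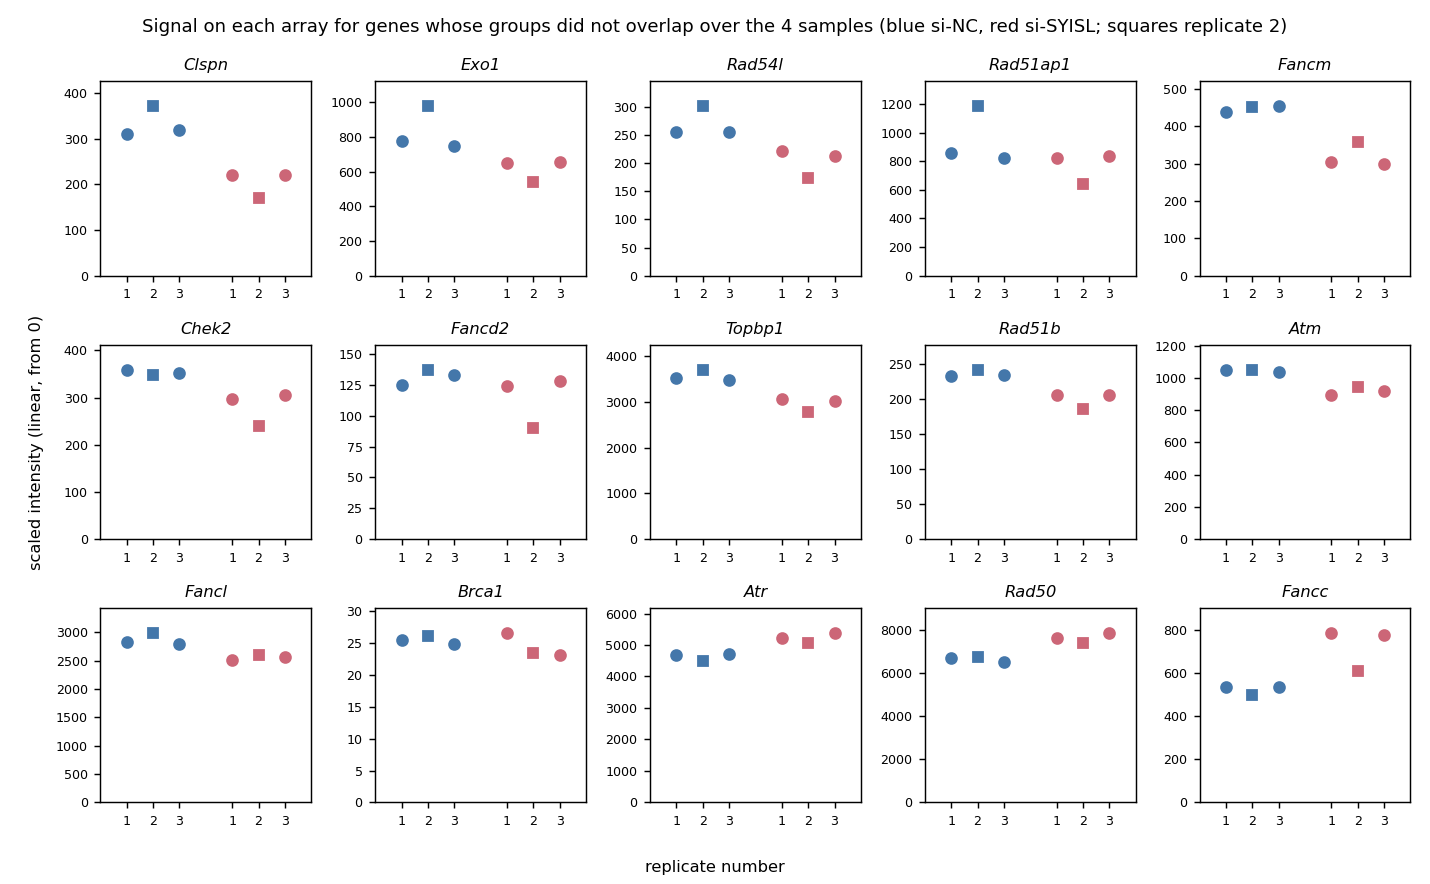
Scaled intensity (y axes, linear from 0) on each array (x axes, replicate number; blue si-NC, red si-SYISL, squares for replicate 2) for the 12 genes whose si-SYISL samples both lay below the si-NC samples and the 3 whose si-SYISL samples both lay above. For Clspn the si-NC arrays reach 371 and the lowest si-SYISL array is 169, and for Rad51ap1, Fancd2 and Brca1 single arrays of replicates 1 and 3 overlap between the groups although their averages do not.

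E2F sites in the promoters were looked up because E2F factors control many of these genes. RefSeq promoter windows (assembly GRCm38.p6, around and mostly upstream of the start of transcription) were held for 25 of the 32 genes. The letters TTTCGCGC, TTTGGCGC, TTTCCCGC or TTTGCCGC were found on either strand for 8 of the 25 (32%), against 2.6% of the 27025 genes with a window. They were Clspn, Topbp1, Chek2, Msh6, Brca2, Bard1, Fancg and Rad51c. Stretches of 100 bases are shown for Clspn, Topbp1 and Chek2, the 3 with a site whose signals were lower without overlap, and for Msh6 and Brca2, whose signals overlapped. Capitals mark the E2F letters, or their reverse complement, as they read on the gene's strand, 5′ to 3′, each stretch being on the + strand.
Clspn, chr4:126556909-126557008: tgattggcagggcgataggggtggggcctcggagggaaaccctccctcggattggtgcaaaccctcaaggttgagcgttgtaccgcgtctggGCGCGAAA
Topbp1, chr9:103305152-103305251: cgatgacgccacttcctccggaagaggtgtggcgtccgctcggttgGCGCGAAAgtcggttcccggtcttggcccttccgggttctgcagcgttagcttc
Chek2, chr5:110839785-110839884: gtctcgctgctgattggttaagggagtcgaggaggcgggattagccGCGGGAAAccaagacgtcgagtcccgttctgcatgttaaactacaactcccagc
Msh6, chr17:87974979-87975078: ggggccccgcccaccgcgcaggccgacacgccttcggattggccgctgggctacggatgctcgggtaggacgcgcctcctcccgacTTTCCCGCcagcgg
Brca2, chr5:150522407-150522506: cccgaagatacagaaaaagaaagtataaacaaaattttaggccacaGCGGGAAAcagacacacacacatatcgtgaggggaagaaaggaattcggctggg
The letters begin 21 bases after the start in Clspn and 15 after it in Msh6, and 129, 152 and 168 bases before it in Topbp1, Chek2 and Brca2. Clspn and Topbp1 carry the same 8 letters. The 7 measured genes with such letters had a median difference of -0.28 (range -0.98 to 0.12), and the 17 measured genes with a window and no such letters had -0.31 (range -0.68 to 0.26). Groups did not overlap and were lower in si-SYISL for 3 of the 7 and for 7 of the 17, against 15.8% of all features. A CCAAT box (CCAAT, either strand), the site of NF-Y, was found for 16 of the 25 genes (64%), against 41.1% of all genes with a window. The cell cycle homology region (TTTGAA or TTCGAA) was found for 3 (12%), Bard1, Rad51b and Atr, against 21.7%. These letters are a description of the windows. Only the exact letters given were searched, so a gene without them was not shown to lack an E2F site.

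Among the recombination mediators, the median was -0.20 over 6 genes, and 4 of the 6 were below the median of all features. Rad51ap1, whose product helps DNA strands pair, gave 859, 1183 and 822 in si-NC and 819, 643 and 837 in si-SYISL. Replicate 2 set the difference: it was the highest si-NC array and the lowest si-SYISL array, while the arrays of replicates 1 and 3 lay between 819 and 859 in both groups. The difference was -0.61 ± 0.23 (adjusted p = 0.301). Brca2, whose product acts at the resected ends, gave 1565, 1865 and 1584 in si-NC and 2259.7, 1719 and 2239.9 in si-SYISL, overlapping signals with a difference of 0.036 ± 0.19 (adjusted p = 0.52). Palb2, which bridges BRCA1 and BRCA2, gave 151, 162 and 148 in si-NC and 158, 126 and 157 in si-SYISL, also overlapping (-0.31 ± 0.16, adjusted p = 0.573).

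Brca1, the ubiquitin ligase gene at the head of this step, was close to background on its only probe. It gave 25.4, 26.1 and 24.7 in si-NC, where 1 of 3 arrays was well above background, and 26.5, 23.4 and 23 in si-SYISL, where 3 of 3 were. The difference of -0.25 ± 0.11 (adjusted p = 0.621) therefore rests on signals near background. Brca1 is among the 12 genes whose averaged samples were lower without overlap, although si-SYISL replicate 1 was above every si-NC array. Its partner gene Bard1 gave 1035, 1642 and 1041 in si-NC and 1850.1, 1373 and 1836 in si-SYISL. The si-NC arrays of replicates 1 and 3 were the lowest and si-NC replicate 2 lay among the si-SYISL arrays, which gave Bard1 the highest SE of the 31 genes (0.12 ± 0.29, adjusted p = 0.543). Brip1, the helicase partner of BRCA1, was dim but well above background on all arrays, with 41.9 to 56.9 in si-NC and 45.4 to 55.7 in si-SYISL and a difference of -0.15 ± 0.17 (adjusted p = 0.961).

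The genes Rad51b, Xrcc2 and Xrcc3, whose products form complexes that assist strand exchange, and the RAD54 translocases, which open the partner duplex, were all below the median of all features in the 5 genes measured. Rad54l, which encodes RAD54, gave 256, 302 and 256 in si-NC and 222, 173 and 213 in si-SYISL. No si-SYISL array reached the si-NC arrays, and the difference was -0.68 ± 0.17 (unadjusted p = 0.0363, adjusted p = 0.199). Its relative Rad54b gave 737, 819.6 and 749.8 in si-NC and 827, 601 and 829 in si-SYISL, where si-SYISL replicate 2 was the lowest array and replicates 1 and 3 were above every si-NC array (-0.31 ± 0.19, adjusted p = 0.645). For Rad51b the arrays were apart, with 234, 242 and 235 in si-NC and 206, 187 and 206 in si-SYISL (-0.44 ± 0.12, adjusted p = 0.248). Xrcc2 and Xrcc3 overlapped between groups, with differences of -0.21 ± 0.17 (adjusted p = 0.869) and -0.18 ± 0.14 (adjusted p = 0.933).

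Among the end processing and helicase genes the nuclease Exo1 stood at -0.70 and the other 4 lay between -0.27 and 0.02. Exo1, which resects 5′ ends at breaks and mismatches, gave 774, 976 and 749 in si-NC and 647, 542 and 654 in si-SYISL. All si-SYISL arrays were below all si-NC arrays, with the extremes again at replicate 2, and the difference was -0.70 ± 0.18 (unadjusted p = 0.0386, adjusted p = 0.202). Rad50 and Nbn encode subunits of the complex that binds broken ends with MRE11. Rad50 gave 6692, 6772 and 6503 in si-NC and 7639.6, 7383 and 7852 in si-SYISL, and Nbn 468, 369 and 469.8 in si-NC and 495, 451 and 492 in si-SYISL. The groups were apart and higher in si-SYISL for Rad50, though not once each sample was centred on its median, and overlapped for Nbn. The differences relative to all features were 0.015 ± 0.11 (adjusted p = 0.353) and 0.021 ± 0.16 (adjusted p = 0.498). Rbbp8, which encodes the resection factor CtIP, had -0.27 ± 0.12 (adjusted p = 0.581), with si-NC replicate 2 at 5071 and the other 5 arrays between 4279 and 4483. Blm, the Bloom helicase gene, had -0.15 ± 0.12 (adjusted p = 0.935), with signals of 679 to 693 in si-NC and 659.9 to 736 in si-SYISL.

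The Fanconi core genes, whose products form the ubiquitin ligase of the pathway or guide it to DNA, had a median of -0.31 over 6 genes, and ran from Fancm at the low end to Fancc, the highest of the 31. Fancm, the translocase that recognises the stalled fork, gave 438, 453 and 454 in si-NC and 305, 359 and 299 in si-SYISL. The arrays of the 2 groups were well apart, and here si-SYISL replicate 2 was the highest of its group (-0.61 ± 0.14, unadjusted p = 0.0258, adjusted p = 0.178). Fancl, the ligase subunit itself, gave 2822, 2980.5 and 2798 in si-NC and 2514, 2598 and 2556 in si-SYISL without overlap (-0.34 ± 0.11, adjusted p = 0.368). Fancc lay on the other side, with 536, 496 and 533 in si-NC and 782, 608 and 776 in si-SYISL, again without overlap (0.26 ± 0.16, adjusted p = 0.233). The core subunits Fancb (-0.35 ± 0.15, adjusted p = 0.466), Fancg (-0.28 ± 0.19, adjusted p = 0.7) and Fanca (-0.24 ± 0.18, adjusted p = 0.792) overlapped between groups, with si-SYISL replicate 2 the lowest array in each.

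Fancd2 and Fanci encode the pair that the core complex ubiquitylates, and their differences were alike in size. Fancd2 gave 125, 137 and 133 in si-NC and 124, 90.5 and 128 in si-SYISL. Fanci gave 672, 870.4 and 672 in si-NC and 692, 538 and 749 in si-SYISL. In both genes si-NC replicate 2 was the highest array and si-SYISL replicate 2 the lowest. Among the remaining arrays the groups overlapped for Fancd2, while for Fanci both remaining si-SYISL arrays were above both remaining si-NC arrays. The differences were -0.48 ± 0.20 (adjusted p = 0.356) and -0.46 ± 0.22 (adjusted p = 0.42). Msh6, whose product recognises mismatched bases, was the mismatch repair gene of the list and gave 5939.8, 6262 and 6197 in si-NC and 6115, 7064 and 6218 in si-SYISL, with overlap and a difference of -0.064 ± 0.13 (adjusted p = 0.629).

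For 9 of the 31 genes more than 1 probe passed the filter, and the values above are from the probe with the highest mean. The second probe of Rad51b gave the opposite sign, 0.37 against -0.44, with signals of 35.6, 43.6 and 34.6 in si-NC and 47.5, 68 and 46.5 in si-SYISL, so the direction for Rad51b depends on the probe. In Palb2 the second probe gave 166, 188 and 156 in si-NC and 118, 119.8 and 114 in si-SYISL without overlap, a difference of -0.73 against -0.31. Atm was lower without overlap at both of its probes (-0.34 and -0.89). Fancc was higher without overlap at both (0.26 and 0.24), and the Bard1 probes gave 0.12 and 0.26. The paired values were -0.21 and -0.51 for Xrcc2, -0.31 and -0.55 for Rad54b, -0.34 and -0.14 for Fancl, and 0.015 and 0.21 for Rad50.

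Much of the difference lay in replicate 2 of each group. After each sample was centred on its median, si-NC replicate 2 was the highest of the 4 samples in 23 of the 31 repair genes (74.2%; 30.8% of all features), and si-SYISL replicate 2 was the lowest in 20 (64.5%; 16.2% of all features). The median of the 31 genes was -0.22 with si-NC replicate 2 left out, -0.17 with si-SYISL replicate 2 left out, and -0.44 when the averaged si-SYISL replicates 1 and 3 were left out. Without replicate 2 of both groups it was -0.073, with 20 of 31 genes below the median of all features and 1 sample in each group, so no test. Before the median of all features was subtracted, 15 of the 31 were lower in si-SYISL there and 16 higher, with 36.6% of all features lower. In that comparison Clspn stood at -0.61, Fancm at -0.66, Exo1 at -0.32 and Rad54l at -0.33. Replicates 1 and 2 came from 1 scan and replicate 3 from another: the median was -0.28 within the first scan and -0.091 within the second, which holds 1 array of each group. Since replicates 1 and 3 were near-identical, the second scan alone nearly repeats the comparison without replicate 2. Scan and replicate therefore cannot be told apart here.

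Genes of the same pathways outside the list of 32 were read from the same fit, and 0 of them passed the threshold over all features. Of 36 other recombination and Fanconi genes 35 were measured, with a median of -0.13. At an unadjusted p under 0.05, 6 were lower and 0 higher, against 5.85% and 16.8% of all features. Among those lower, Polq, the polymerase of microhomology-mediated end joining, had -0.92 ± 0.17 (adjusted p = 0.141) and the nuclease-helicase gene Dna2 -0.79 ± 0.14 (adjusted p = 0.142). The smallest p on the higher side were those of Rad51d (0.085 ± 0.11, adjusted p = 0.254), Uimc1 (0.27 ± 0.23, adjusted p = 0.305) and Fance (0.041 ± 0.11, adjusted p = 0.311). A second probe gave -0.12 for Rad51d, the opposite sign, and -0.22 with overlap for Dna2. Of 7 further mismatch repair genes 0 were lower and 1 higher at that p, with a median of -0.11. Msh3 stood at 0.19 ± 0.12 (adjusted p = 0.194), and its 2 other probes gave 0.34 and -0.33. On the lower side Pcna had -0.46 ± 0.13 (adjusted p = 0.263), Pms2 -0.33 ± 0.14 (adjusted p = 0.495) and Mlh3 -0.11 ± 0.16 (adjusted p = 0.835).

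The median of 21 other checkpoint genes was -0.24. At an unadjusted p under 0.05, 7 were lower and 2 higher (Trp53bp1 and Rad9b), against 5.85% and 16.8% of all features. Trp53, which encodes p53, the transcription factor that ATM, ATR and their kinases activate, gave 1408, 1243 and 1375 in si-NC and 172, 499.6 and 169.8 in si-SYISL on its 1 named probe. Every si-SYISL array was far below the si-NC arrays, and si-SYISL replicate 2 lay between its fellow replicates and si-NC. The difference was -2.33 ± 0.54 (adjusted p = 0.152). Cdc25b, a phosphatase that drives entry into mitosis, had -0.78 ± 0.12 (adjusted p = 0.127) and the fork protection gene Timeless -0.67 ± 0.14 (adjusted p = 0.163). On the higher side Trp53bp1, which limits resection, had 0.32 ± 0.13 (adjusted p = 0.163) and Atrip, the partner of ATR, 0.15 ± 0.14 (adjusted p = 0.264). A second probe of Trp53bp1 gave -0.39, the opposite sign, with overlap. Rad9b, though counted as higher, passed the filter only through its si-SYISL arrays. It was not well above background on any si-NC array, so no value is given for it. The 16 p53 response genes had a median of -0.19. At an unadjusted p under 0.05, 4 were lower and 0 higher, against 5.85% and 16.8% of all features. Plk2 had -1.27 ± 0.22 (adjusted p = 0.127), Ccng1 -0.66 ± 0.11 (adjusted p = 0.137) and Pmaip1 -0.72 ± 0.16 (adjusted p = 0.167), while Mdm2 stood at 0.16 ± 0.12 (adjusted p = 0.225), Phlda3 at 0.018 ± 0.12 (adjusted p = 0.371) and Cdkn1a at 0.042 ± 0.14 (adjusted p = 0.395). The second probe of Cdkn1a gave -0.61, with 220.2, 278 and 219 in si-NC and 172, 192 and 169 in si-SYISL, so the sign for Cdkn1a depends on the probe.

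Genes of DNA replication and of dividing cells lay on the same side as the repair genes. The 23 replication genes had a median of -0.30, with 22 of them below the median of all features. At an unadjusted p under 0.05, 5 were lower and 0 higher, against 5.85% and 16.8% of all features. E2f2 had -0.80 ± 0.13 (adjusted p = 0.13), Cdc6 -0.95 ± 0.20 (adjusted p = 0.157) and Mcm3 -0.62 ± 0.12 (adjusted p = 0.162), and the only one above the median was Tyms (0.049 ± 0.14, adjusted p = 0.379). All 8 markers of proliferating cells were below the median of all features, with a median of -0.61, and si-NC replicate 2 was the highest and si-SYISL replicate 2 the lowest sample for 8 of the 8. Their summed signal was 30760 to 39600 intensity units in si-NC against 25050 to 33040 in si-SYISL. Without overlap 5 of the 8 were lower and 0 higher, against 15.8% and 46.3% of all features, while Mki67, Ccnb1 and Ccna2 overlapped. Mki67 stood at -0.17, and at -0.0041 before the median of all features was subtracted. Aurkb was well above background on 2 of 3 si-SYISL arrays. The part of dividing cells in the differences of the repair genes was not tested, and in RNA from whole cultures fewer dividing cells and less RNA per cell cannot be told apart.

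**Figure D4:**
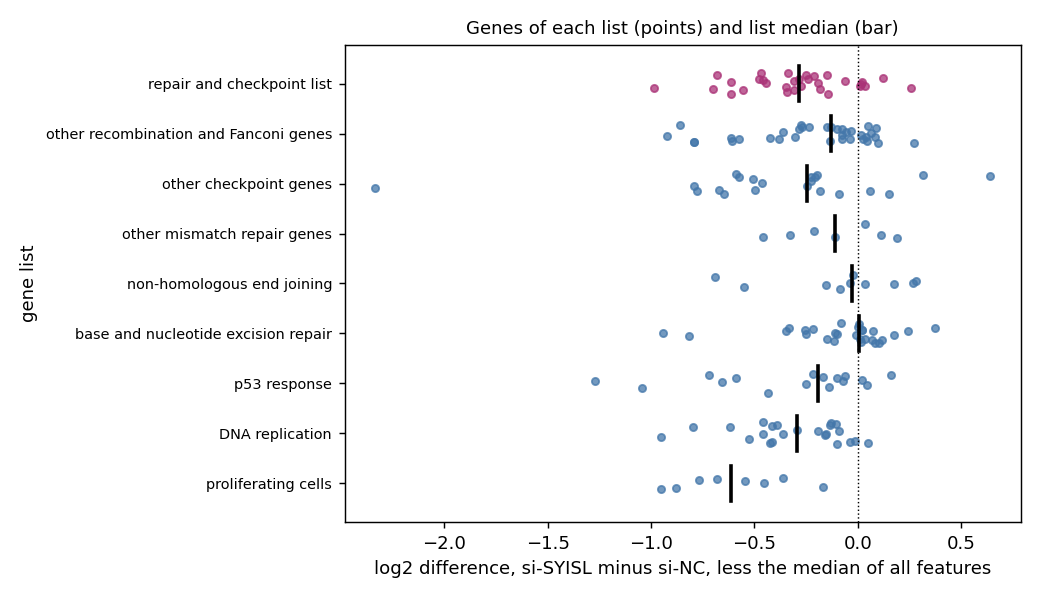
Log2 difference (x axis, si-SYISL minus si-NC, less the median of all features) of each measured gene (points) in the repair and checkpoint list, 7 related lists and the markers of proliferating cells (y axis), with a bar at each list's median. The bars stand at -0.28 for the repair and checkpoint list, -0.30 for DNA replication, -0.61 for proliferating cells and 0.0043 for base and nucleotide excision repair.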

How the data were processed

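Each deposited scanner file gives spot intensity that was background-subtracted within its array by Agilent Feature Extraction (11.0.1.1 per the file headers, 10.5.1.1 per the submitters' processing notes), from 1 µg of total RNA labelled with Cy3. Per the file headers, the deposited files also give median pixel intensity and quality flags (unit other). The deposited series matrix holds log2 values with nearly equal quantiles, taken as quantile-normalised by the authors and used only as an alternative.

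Signals were put on the log2 scale and set relative to the 75th percentile of the array, controls excluded. Outlier spots were dropped and repeated spots averaged. Probes were named through the printed RefSeq accession and RefSeq's GRCm38.p6 table (27234 of 39429 probes). Probes had to be well above background throughout 1 group or the other, and the brightest such probe stood for its gene (18635 named genes and 9920 unnamed probes). The array design was annotated on another build, so no coordinates of genes or probes are given; those printed for promoters are RefSeq's own on GRCm38.p6.

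Arrays of 1 group that differed by less than the spread of a probe's repeated spots (chi-square per probe under 1, over 309 probes) were averaged. The si-SYISL and si-NC samples were compared in R 4.3.3 by a two-sided limma fit (version 3.58.1, lmFit then eBayes), with Benjamini-Hochberg adjustment over all 28555 features and a threshold of 0.05. The fit had 2 residual and 2.37 prior degrees of freedom and was tested on simulated data. p-values test the difference before the median of all features is subtracted. No set test was used.

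The members, lists and tests were chosen with earlier results of these data known. All members are named. From each related list the 3 genes with the smallest p on each side of the median of all features are named, except a few that are not reported here, and the promoter letters were chosen after the values were seen. Same-numbered samples of the groups did not deviate together (correlation -0.0311 over all features), so the numbers were not taken as pairs. Alternatives covered the background (normexp, offset 50, on the median pixel intensity), normalisation, series matrix, filter, probe rule, variance model, a block on replicate or scan, 6 arrays as 6 samples, each sample left out, and, chosen after seeing the data, each scan alone and both groups without replicate 2.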

Additional observations from a re-analysis of the deposited data

How the results depend on the processing

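The median of the 31 genes stayed below 0 under all 18 alternatives, from -0.44 to -0.073. Each scan alone was not a separate check, because replicates 1 and 3 were near-identical. Counted as 6 independent samples, which takes the near-identical arrays of replicates 1 and 3 as separate, the 6 arrays gave 9762 called features (34.2% of all) and 9 called members: Rad51b, Rad54l, Fancm, Atm, Chek2, Topbp1 and Clspn lower, Fancc and Rad50 higher. In every other fit 0 of the 31 were called. Over all features limma called 0 in the reported fit, with 6462 at an unadjusted p under 0.05, and 183 with normexp, 904 with a variance trend and robust estimation, 83 with the scan as a block, and 0 to 1379 when a sample was left out, 1379 when the averaged si-NC replicates 1 and 3 were dropped and 276 without si-NC replicate 2. The replicate block called 0 features and 0 members, with the median at -0.28. The count of members lower in all si-SYISL samples was 12 in the reported fit (15.8% of all features). It fell to 9 (15% of all features) with the 6 arrays read singly, as also with the scan as a block, and to 11 (15.8%) within the first scan. With probes well above background on all 6 arrays it was 11 of 30 (17.7% of all features). With a sample left out it was 13 to 21 (20.4% to 26.2% of all features), where fewer samples have to be in order. The count was 19 and 21 when replicates 1 and 3 of si-NC or of si-SYISL were dropped.

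Of the 31 genes, 18 kept their sign relative to all features under every alternative they were measured in, which was all 18 except for Brca1, measured in 17. The sign turned for Blm (0.11) and Atr (-0.056) with normexp, for Msh6 with quantile normalisation (0.064) and the series matrix (0.058), for Atr with no filter (-1.9e-05) and for Rad50 within the first scan (-0.0044). With a sample left out the ranges were -0.19 to 0.28 for Brca2, -0.22 to 0.48 for Bard1, -0.051 to 0.097 for Rad50, -0.32 to 0.039 for Brip1, -0.13 to 0.19 for Nbn, -0.052 to 0.091 for Atr, -0.11 to 0.0024 for Msh6, -0.49 to 0.017 for Fanca and -0.44 to 0.031 for Xrcc2. Without replicate 2 of both groups it turned for Rad54b (0.059), Nbn (-0.022), Blm (0.0032), Fanca (0.097), Fanci (0.0026), Xrcc2 (0.11) and Xrcc3 (0.059), and within the second scan for the same genes (0.049, -0.028, 0.022, 0.086, 0.061, 0.098 and 0.067 in that order). The cause of these turns was not tested. Genes with signals near background, such as Brca1, are limited by it.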

Other observations

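Excision repair and end joining had medians close to that of all features. Of 28 genes of base and nucleotide excision repair, 13 were below the median of all features and 15 above it (median 0.0043). At an unadjusted p under 0.05 in limma 1 was lower and 1 higher, against 5.85% and 16.8% of all features. After adjustment 0 passed. The thymine glycosylase gene Mbd4 had -0.82 ± 0.13 (adjusted p = 0.127) and the DNA ligase gene Lig3 0.37 ± 0.15 (adjusted p = 0.167), followed on the higher side by Mpg (0.18 ± 0.13, adjusted p = 0.226) and Tdg (0.10 ± 0.12, adjusted p = 0.259). The other 2 Tdg probes gave the opposite sign, -0.20 with overlap and -0.38 without, so the sign for Tdg depends on the probe. Ung, the uracil glycosylase gene, gave 16642, 17560.0 and 16523 in si-NC and 7037, 14058 and 7024 in si-SYISL, so that the si-SYISL samples were further from each other than si-SYISL replicate 2 was from si-NC (-0.94 ± 0.36, adjusted p = 0.268). Ercc6 had -0.35 ± 0.11 (adjusted p = 0.342).

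Non-homologous end joining rejoins ends without a template and works in non-dividing cells too, and its 10 genes had a median of -0.030. At an unadjusted p under 0.05, 2 were lower and 2 higher, against 5.85% and 16.8% of all features, and 0 passed after adjustment. The lower pair encode partners, the ligase Lig4 with 3211, 3494 and 3216 in si-NC and 2181, 2455 and 2209 in si-SYISL (-0.69 ± 0.13, adjusted p = 0.147) and its scaffold Xrcc4 (-0.55 ± 0.14, adjusted p = 0.218). Dclre1c, the Artemis nuclease gene, had -0.038 ± 0.12 (adjusted p = 0.511) on the probe used, 1 of 4. Its signals there were 313, 344 and 315 in si-NC and 356, 359 and 359.6 in si-SYISL. The si-SYISL arrays were thus above the si-NC arrays, though not once each sample was centred on its median. The other 3 probes gave -0.75 and -0.73, both lower without overlap, and -0.27 with overlap, so the direction for Dclre1c depends on the probe. On the higher side Paxx had 0.28 ± 0.14 (adjusted p = 0.179; -0.034 on a second probe), Poll 0.18 ± 0.12 (adjusted p = 0.202) and the kinase gene Prkdc 0.26 ± 0.17 (adjusted p = 0.23).

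Markers of other cell types were also measured. Of 4 epithelial markers 1 was well above background on all 6 arrays, and their summed signal was 291.9 to 295.8 intensity units in si-NC and 549 to 678 in si-SYISL. Krt18 was well above background on 2 of 3 si-NC arrays. It passed the filter only through its si-SYISL arrays, so no value is given for it. Cdh1 was well above background on 0 of 3 si-NC arrays, and Cldn7, the marker measured on all arrays, stood at 0.020. The 4 neuronal markers summed to 838 to 2242 in si-NC and 2862 to 4567 in si-SYISL, the 4 endothelial markers to 2351 to 2571 and 2721 to 2807, the 3 blood cell markers with a probe to 5626 to 5857 and 6586 to 9491, and the 4 adipocyte markers to 6234 to 6949 and 3756 to 3863. Single genes stood out within these sums. Of the neuronal markers Snap25 stood at 1.76, against 0.17 for Elavl4 and 0.28 for Rbfox3. Syt1 was well above background on 0 of 3 si-NC arrays. Itgam stood at 0.65 among the blood cell markers, against 0.19 for Ptprc and -0.20 for Cd14. Lpl was at -1.02 among the adipocyte markers, against -0.098 for Adipoq, 0.045 for Plin1 and -0.053 for Cidec. Adipoq was well above background on 1 of 3 si-NC arrays. The 4 fibroblast markers summed to 160800 to 177700 in si-NC and 146600 to 174700 in si-SYISL. All 4 were below the median of all features, with a median of -0.34 and a range of -0.55 to -0.22. Without overlap 0 were lower and 0 higher, against 15.8% and 46.3% of all features. The part of these transcripts in the differences of the repair genes was not tested.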
